A study of Mus musculus with 6 samples.

Results

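The genes described here are 10 markers of touch and proprioceptive neurons of the dorsal root ganglion (DRG): *Pvalb*, *Runx3*, *Etv1*, *Whrn*, *Piezo2*, *Calb1*, *Necab2*, *Th*, *Slc17a8*, and *Runx1*. They were taken by symbol from a table of 48440 rows of read counts, in which all 10 had a row of their own, and all 10 passed the filter on low counts that left 18593 genes for testing. The libraries came from the ipsilateral L3/4 DRGs of wild-type (WT) male mice, 3 after unilateral microinjection of AAV5-*Gfp*, an adeno-associated virus carrying green fluorescent protein, and 3 after AAV5-*V1* mixed with AAV5-*V2* (AAV5-*V1+V2*), which carry the transcript variants of *NIS-lncRNA*. Tissue collection is given at 5 weeks and the comparison at 4 weeks after microinjection in the deposited description. The sources used here give no age, no number of mice for a library, and no promoter for the viral transcripts. The study's text names CD1 mice for its microinjections of these viruses. The groups are called *Gfp* and *V1+V2* libraries where values are listed, and values listed for 3 libraries stand in the order of replicates 1, 2, and 3. Levels are in CPM, the counts of a gene scaled to the library total by the TMM method. No row of the count table was matched to *NIS-lncRNA*, so its overexpression was not checked here. Of 8 spinal cord markers, 6 had at most 10 counts in any library and were not tested, and the list summed to 10.71 to 12.02 CPM with *Gfp* and 10.75 to 14.95 CPM with *V1+V2*. Nearly all of this was *Aqp4* (means of 6.46 and 4.62 CPM, adjusted p = 0.102 by edgeR's test) and *Gfap*, also known from activated satellite glia, which rose from 4.34 to 7.66 CPM (log2 fold change 0.82, adjusted p = 0.0406 by the same test). No library was without virus, so both groups share the surgery and the AAV5 capsid. Nothing states that libraries of a group came from separate mice, and the p-values measure the spread between these libraries, which may be technical.

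Large and medium DRG neurons with myelinated axons carry touch and limb position to the spinal cord, and a class of small unmyelinated neurons responds to gentle stroking. Proprioceptors, which innervate muscle spindles and tendon organs, are known for parvalbumin (*Pvalb*), the transcription factors RUNX3 and ETV1, and whirlin (*Whrn*). Low-threshold mechanoreceptors of hairy and glabrous skin are known for the mechanically gated channel PIEZO2, and their classes for calbindin (*Calb1*), *Necab2*, or, in the unmyelinated class, tyrosine hydroxylase (*Th*) together with the vesicular glutamate transporter VGLUT3 (*Slc17a8*). RUNX1 is the counterpart of RUNX3 in the nociceptor lineage, and both factors are also known from blood cells, among them T lymphocytes.

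Of the 10 markers, *Piezo2* and *Pvalb* fell and *Runx3* rose in DRGs given AAV5-*V1+V2*, relative to AAV5-*Gfp*. *Piezo2* fell by 33.7% and *Pvalb* by 29.6%, whereas *Runx3* was 3.04-fold higher. The other 7 did not pass the test, edgeR's quasi-likelihood fit with Benjamini-Hochberg adjustment over all genes and a threshold of 0.05. Thus 2 of 10 were lower, where 5.27% of all genes tested were lower, and 1 of 10 was higher, where 10.1% of all genes were higher. Counted without the test, 8 of the 10 had a negative log2 fold change, against 50% of all genes, and the median over the 10 was -0.36, against -0.0003 over all genes. Of the 8, *Th*, *Necab2*, and *Whrn* turned positive when libraries were scaled to pan-neuronal genes. Every AAV5-*V1+V2* library was below every AAV5-*Gfp* library for 5 of the 10, *Piezo2*, *Pvalb*, *Th*, *Calb1*, and *Whrn*, against 22% of all genes, and above for 2 of the 10, *Runx3* and *Runx1*, against 23.4%.

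These results rested on few libraries. With any 1 AAV5-*Gfp* library left out, 0 of the 10 passed in either direction. In those fits 2 or 3 on the lower side and 2 on the higher side had an unadjusted p below 0.05. Few of all genes passed there either: 257 higher and 59 lower without replicate 1, 12 and 0 without replicate 2, and 15 and 0 without replicate 3. Without AAV5-*V1+V2* replicate 2, 0 of the 10 were lower and *Runx3* alone was higher (all genes: 150 lower, 1020 higher). Without AAV5-*V1+V2* replicate 3, 4 of the 10 were lower and 2 higher (all genes: 1446 lower, 2474 higher). With libraries scaled to pan-neuronal genes, described further on, 0 were lower and *Runx3* was higher. In a bulk ganglion, fewer cells of a type, less RNA per cell, and more RNA from other cells cannot be told apart. This holds for each level given here.

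**Figure D1:**
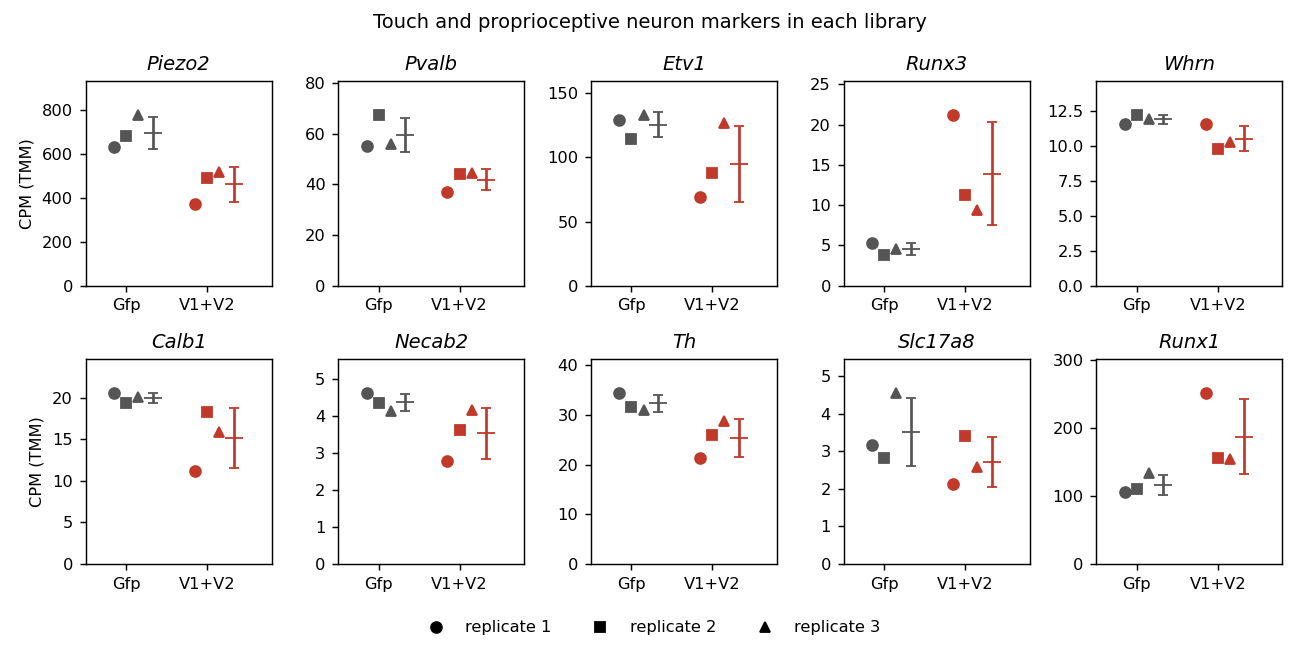
Level of each of the 10 markers in CPM (TMM normalization, linear axes from 0) in 3 AAV5-Gfp libraries (grey) and 3 AAV5-V1+V2 libraries (red), with the symbol giving the replicate number and the bar to the right the mean ± SD. AAV5-V1+V2 replicate 1 (red circle) was the lowest of the 6 libraries for 7 of the 10 markers and the highest for Runx1 and Runx3.

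All 10 are protein-coding genes in GENCODE M21 on the mouse build GRCm38, the build named in the submitters' processing notes. *Pvalb* lies on chromosome 15 from 78191114 to 78206400 (minus strand), *Piezo2* on chromosome 18 from 63010213 to 63387183 (minus), *Etv1* on chromosome 12 from 38779380 to 38870484 (plus), and *Th* on chromosome 7 from 142892752 to 142931128 (minus). Chromosome 4 holds *Runx3* from 135120652 to 135177990 (plus), *Whrn* from 63414910 to 63495991 (minus), and *Calb1* from 15881264 to 15908064 (plus). *Runx1* lies on chromosome 16 from 92601466 to 92826149 (minus), *Slc17a8* on chromosome 10 from 89574020 to 89621253 (minus), and *Necab2* on chromosome 8 from 119446719 to 119472640 (plus). The exons of 9 of the 10 overlap no exon of another gene. Those of *Runx1* share 106 bases, 0.88% of their length, with the antisense gene *Gm26626*, whose reads cannot be told apart if the counting did not use strand.

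Per kilobase of annotated exon, the AAV5-*Gfp* levels ran from 57.1 ± 6.54 CPM per kb (SD, n = 3) for *Pvalb* and 40.4 ± 4.33 for *Piezo2* down to 0.916 ± 0.146 for *Runx3* and 0.744 ± 0.194 for *Slc17a8*. Between them stood *Th* at 13.7 ± 0.751, *Runx1* at 9.64 ± 1.23, *Etv1* at 9.45 ± 0.728, *Calb1* at 4.12 ± 0.122, *Necab2* at 2.08 ± 0.115, and *Whrn* at 1.63 ± 0.042 CPM per kb. Along this order the AAV5-*Gfp* libraries of neighbouring genes overlapped for *Runx1* and *Etv1* and for *Runx3* and *Slc17a8*, and not for the other neighbours. In the AAV5-*V1+V2* libraries *Runx1*, at 15.5 ± 4.60 CPM per kb, had a higher mean than *Th*, at 10.7 ± 1.59, and *Runx3*, at 2.79 ± 1.27, a higher mean than *Whrn*, at 1.44 ± 0.126. The exon length is the union over all annotated transcripts, so a gene with long rarely used exons is placed too low by this scale.

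*Runx3* and *Runx1* share an arrangement with a distal and a proximal start, and the table counts both starts under 1 symbol. Their upstream sequences are shown because these were the markers whose AAV5-*V1+V2* libraries all lay above the AAV5-*Gfp* libraries. They come from RefSeq promoter windows of GRCm38.p6, which were used for 8 of the markers (not for *Calb1* and *Piezo2*), and are cut to the longest stretch before the start that lies in no GENCODE M21 exon. The bases right after the start were found in a GENCODE M21 transcript of the gene for the *Runx3* proximal and *Runx1* distal starts. For the *Runx3* distal and *Runx1* proximal starts they were found in none. Capitals mark the words searched as RUNX motif (TGTGGT and TGCGGT, on either strand, so also ACCACA and ACCGCA), each read 5′ to 3′ on the strand of the gene.
Runx3 distal start, plus strand, chr4:135120448-135120644: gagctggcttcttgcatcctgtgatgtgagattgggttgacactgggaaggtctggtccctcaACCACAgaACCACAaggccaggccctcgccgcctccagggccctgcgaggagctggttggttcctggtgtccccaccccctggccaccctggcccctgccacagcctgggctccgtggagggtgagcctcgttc
Runx3 proximal start, plus strand, chr4:135152295-135152495: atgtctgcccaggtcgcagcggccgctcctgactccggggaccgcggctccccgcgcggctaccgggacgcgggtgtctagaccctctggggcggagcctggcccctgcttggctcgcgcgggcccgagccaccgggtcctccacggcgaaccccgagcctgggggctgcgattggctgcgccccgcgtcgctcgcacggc
Runx1 distal start, minus strand, chr16:92826150-92826324: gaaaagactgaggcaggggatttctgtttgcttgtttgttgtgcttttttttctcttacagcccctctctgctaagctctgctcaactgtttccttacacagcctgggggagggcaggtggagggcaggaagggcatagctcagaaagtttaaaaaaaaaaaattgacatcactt
Runx1 proximal start, minus strand, chr16:92697330-92697579: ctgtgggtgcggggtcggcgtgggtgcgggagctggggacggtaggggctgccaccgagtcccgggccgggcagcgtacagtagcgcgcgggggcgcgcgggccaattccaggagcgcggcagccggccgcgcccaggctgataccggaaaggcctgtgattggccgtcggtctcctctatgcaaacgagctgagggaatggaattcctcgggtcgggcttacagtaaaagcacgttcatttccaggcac

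The window of the distal *Runx3* start held the word ACCACA at 2 places that do not overlap, and the other 3 windows held none of the words within 250 bases before the start. Over all markers with a window, 2 of 13 windows held a RUNX word, the other being in front of *Etv1*, and 18.6% of 32851 windows of the same length in the whole table held 1 or more. Such a match is a stretch of letters, and binding at these places was not measured.

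Among the proprioceptor markers, *Pvalb*, a calcium-binding protein of fast-firing neurons, was at 55.3, 67.3, and 55.8 CPM in the *Gfp* libraries and at 37.2, 44.0, and 44.4 CPM in the *V1+V2* libraries. The groups did not overlap, and AAV5-*Gfp* replicate 2 stood above the other 5 libraries. The means were 59.4 ± 6.81 and 41.8 ± 4.06 CPM (SD, n = 3 each), a log2 fold change of -0.51 ± 0.11 (SE; adjusted p = 0.0267 by edgeR's test). *Pvalb* is also a gene of fast skeletal muscle fibres, so the muscle markers were read beside it. Their summed level was 31.7, 468, and 149 CPM in the *Gfp* libraries and 141, 54.1, and 13.4 CPM in the *V1+V2* libraries. Thus the library with the highest *Pvalb* also had the most muscle RNA, with 60.4 CPM of *Acta1*, the actin of skeletal muscle, and 47.9 CPM of *Ckm*, its creatine kinase. Without that library the log2 fold change of *Pvalb* was -0.41 (adjusted p = 0.0936 by edgeR's test). AAV5-*V1+V2* replicate 1, with more muscle RNA than AAV5-*Gfp* replicate 1, had the lowest *Pvalb* of all. All 10 muscle markers had a negative log2 fold change, against 50% of all genes. Of the 10, 1 fell, *Ckmt2* (log2 fold change -1.10, standard error 0.29), where 5.27% of all genes were lower. The groups overlapped for 9 of the 10, and for 10149 of all 18593 genes tested. No muscle marker was at 0 in any library, and the part of these markers in the fall of *Pvalb* was not tested.

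*Etv1*, an ETS factor required for the connections of proprioceptors with motor neurons, was at 129, 115, and 133 CPM with *Gfp* and at 69.2, 87.9, and 127 CPM with *V1+V2*. AAV5-*V1+V2* replicate 3 lay within the AAV5-*Gfp* range and the other 2 below it. The means of 126 ± 9.68 and 94.7 ± 29.5 CPM (SD, n = 3 each) gave a log2 fold change of -0.41 (95% CI -0.88 to 0.07, adjusted p = 0.196 by edgeR's test). Without AAV5-*V1+V2* replicate 3 it was -0.67 (adjusted p = 0.0138 by edgeR's test), the lone case among 14 alternative analyses in which *Etv1* passed. The related factors *Etv4* and *Etv5* had log2 fold changes of 0.14 and -0.17, and neither passed. *Whrn*, which encodes a scaffold protein also known from hair cells of the inner ear, had 373 to 424 counts with *Gfp* and 326 to 381 with *V1+V2*. The CPM of the groups did not overlap, but by little, with 11.58 in AAV5-*V1+V2* replicate 1 and 11.62 in AAV5-*Gfp* replicate 1. The log2 fold change of *Whrn* was -0.18 (95% CI -0.41 to 0.05, adjusted p = 0.243 by edgeR's test), the smallest in size among the 10. Of its partners in hair cells, *Adgrv1* (log2 fold change -0.38) and *Pdzd7* (-0.24) did not pass.

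*Runx3*, which directs the proprioceptor lineage, rose where *Pvalb* fell. It had 172, 134, and 142 counts in the *Gfp* libraries and 697, 373, and 323 counts in the *V1+V2* libraries. The groups were far apart, and AAV5-*V1+V2* replicate 1 held about as many counts as the other 2 together. Its mean rose from 4.58 ± 0.732 to 13.9 ± 6.34 CPM (SD, n = 3 each), a log2 fold change of 1.60 ± 0.31 (SE; adjusted p = 0.0224 by edgeR's test). Without AAV5-*V1+V2* replicate 1 the log2 fold change was 1.17 and still passed (adjusted p = 0.00576 by edgeR's test), but the call was lost when AAV5-*Gfp* replicate 1 (adjusted p = 0.0589), 2 (0.0919), or 3 (0.1005) was left out.

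The 12 T cell markers moved with *Runx3*. They summed to 27.2, 14.8, and 15.4 CPM in the *Gfp* libraries and to 181, 103, and 86.8 CPM in the *V1+V2* libraries, and ranked the 6 libraries in the same order as *Runx3*. *Cd3e*, a chain of the T cell receptor complex, had 20, 9, and 6 counts with *Gfp* and 287, 125, and 118 with *V1+V2*. Of the 12 markers 11 rose, all but *Cd8a* (adjusted p = 0.0529 by edgeR's test), with a median log2 fold change of 3.22. Summed macrophage markers were at 182 to 254 CPM with *Gfp* and 526 to 1449 CPM with *V1+V2*, and 9 of 10 rose. All 8 B and plasma cell markers rose, from 24.5 to 34.7 CPM in sum to between 266 and 403 CPM. These calls also rested on the AAV5-*Gfp* libraries, as did those of all genes. Of all genes, 1872 of 18593 were higher with all 6 libraries, 257 without AAV5-*Gfp* replicate 1, 12 without replicate 2, and 15 without replicate 3. Without AAV5-*Gfp* replicate 2 or 3, 0 T cell and 0 macrophage markers and 1 B or plasma cell marker passed, and without replicate 1 the macrophage count was 3, while the T cell median stayed at 3.06 and 3.05 without replicates 2 and 3. The part of these cells in the rise of *Runx3* was not tested.

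*Runx1* was at 105, 110, and 133 CPM in the *Gfp* libraries and at 251, 156, and 154 CPM in the *V1+V2* libraries. The groups did not overlap, and replicate 1 again stood above the other AAV5-*V1+V2* libraries. The means were 116 ± 14.8 and 187 ± 55.3 CPM (SD, n = 3 each), with a log2 fold change of 0.69 (95% CI 0.22 to 1.16) that missed the threshold (adjusted p = 0.0577 by edgeR's test). Over the 14 alternatives the adjusted p ran from 0.00531 to 0.167, and *Runx1* passed in 5, among them DESeq2 and the fit without AAV5-*V1+V2* replicate 1, where its log2 fold change was 0.42. *Runx2*, the family member of bone, had a log2 fold change of 0.72 (adjusted p = 0.0728) and *Cbfb*, the shared partner of the 3 RUNX proteins, of -0.17 (adjusted p = 0.195), both by the same edgeR test. *Runx1t1*, a corepressor known from its fusion with *Runx1* in leukaemia, fell by 0.36 on the log2 scale (standard error 0.07). The 12 nociceptor markers, the class that *Runx1* stands for here, all had a negative log2 fold change, with a median of -0.33, and 1 of them fell, the transcription factor *Prdm12* (-0.65, standard error 0.17). That count was 5 without AAV5-*V1+V2* replicate 1, with DESeq2, or with a replicate block. It was 3 without AAV5-*V1+V2* replicate 3 or without the filter. It was 0 without AAV5-*V1+V2* replicate 2, without any 1 AAV5-*Gfp* library, or with pan-neuronal scaling. Of all genes tested with all 6 libraries and TMM, 5.27% were lower.

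**Figure D2:**
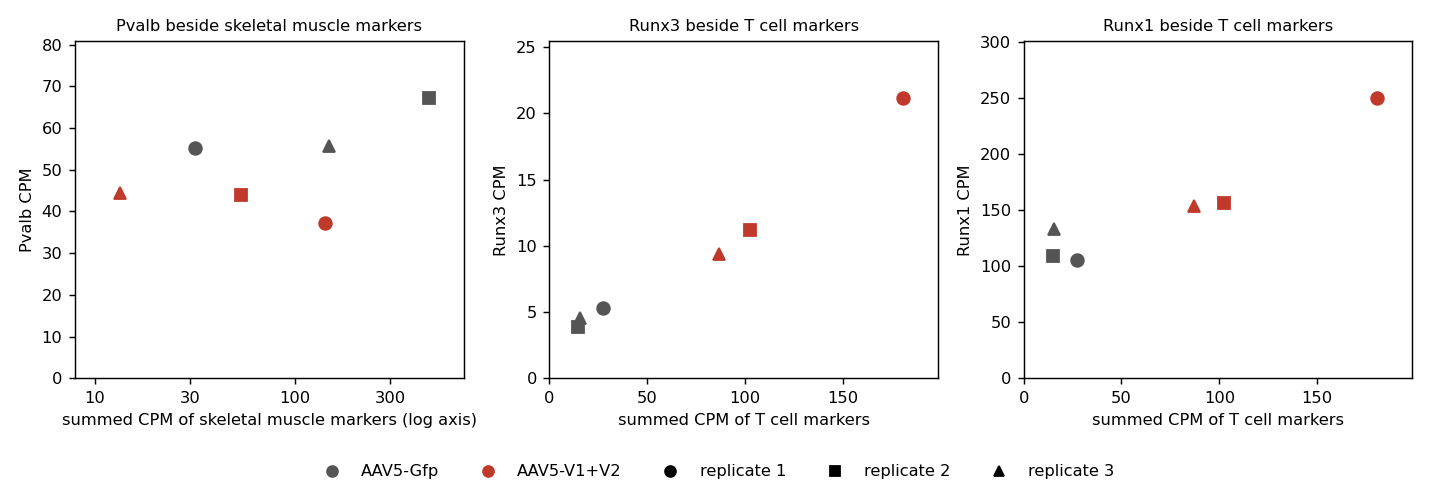
CPM of Pvalb beside the summed CPM of 10 skeletal muscle markers (left, log x axis) and CPM of Runx3 and Runx1 beside the summed CPM of 12 T cell markers (middle and right, linear axes), 1 point a library, grey for AAV5-Gfp and red for AAV5-V1+V2. Pvalb was highest in the AAV5-Gfp library with 468 CPM of muscle markers, and Runx3 and Runx1 were highest in the AAV5-V1+V2 library with 181 CPM of T cell markers. Among the AAV5-Gfp libraries, Runx1 was lowest (105 CPM) in replicate 1, which had the most T cell markers (27.2 CPM).

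*Piezo2*, the channel through which these neurons sense touch and muscle stretch, had the most reads of the 10, with 12225 to 24171 counts in a library. It was at 628, 679, and 775 CPM in the *Gfp* libraries and at 372, 491, and 517 CPM in the *V1+V2* libraries. Every AAV5-*V1+V2* library was below the lowest AAV5-*Gfp* library, and the means of 694 ± 74.4 and 460 ± 77.6 CPM (SD, n = 3 each) gave a log2 fold change of -0.59 ± 0.15 (SE; adjusted p = 0.0380 by edgeR's test). The call of *Piezo2* was lost on leaving out AAV5-*Gfp* replicate 1 (adjusted p = 0.0751), 2 (0.113), or 3 (0.136), or AAV5-*V1+V2* replicate 2 (0.0758), and that of *Pvalb* with the same 4 libraries. *Piezo1*, the paralog known from endothelium and macrophages, was at 8.10 CPM with *Gfp* and 15.2 CPM with *V1+V2* and rose (log2 fold change 0.91, standard error 0.21). Among 9 tested genes of mechanotransduction channels and their modulators, 2 fell, *Asic2* (log2 fold change -0.96, standard error 0.18) and *Asic3* (-0.44, standard error 0.12), which encode acid-sensing channels, and *Piezo1* alone rose. Of all genes tested, 5.27% were lower and 10.1% higher. *Stoml3*, a stomatin that sensitizes mechanically gated currents, had 2 to 5 counts in every library and was not tested.

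*Calb1*, a calcium buffer, was at 20.5, 19.3, and 20.0 CPM in the *Gfp* libraries and at 11.2, 18.3, and 15.9 CPM in the *V1+V2* libraries. The AAV5-*V1+V2* libraries were all lower and spread more widely, with an SD of 3.63 against 0.591 CPM. Its log2 fold change was -0.40 (95% CI -0.79 to -0.01, adjusted p = 0.138 by edgeR's test). *Necab2*, another calcium-binding protein, had 149, 151, and 129 counts with *Gfp* and 92, 121, and 143 counts with *V1+V2*. The groups overlapped, and counting error alone is 8.14% to 10.4% of a library's value at this depth. The log2 fold change of *Necab2* was -0.31 (95% CI -0.71 to 0.10, adjusted p = 0.253 by edgeR's test). Of 4 other calcium-binding proteins tested, *Calb2*, *Necab1*, *Necab3*, and *S100b*, none passed, with 3 lower at an unadjusted p under 0.05 and log2 fold changes from -0.57 to -0.22. With DESeq2, with a replicate block, or without AAV5-*V1+V2* replicate 3, 3 of the 4 were called lower, and 1 was without AAV5-*V1+V2* replicate 1.

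In the unmyelinated class, *Th*, the rate-limiting enzyme of catecholamine synthesis, was at 34.3, 31.5, and 31.1 CPM in the *Gfp* libraries and at 21.4, 25.9, and 28.8 CPM in the *V1+V2* libraries. The groups did not overlap, and the log2 fold change of -0.35 (95% CI -0.62 to -0.08) did not pass (adjusted p = 0.0794 by edgeR's test). *Th* passed in 2 of 14 alternatives, with DESeq2 (adjusted p = 0.0458) and without AAV5-*V1+V2* replicate 3 (adjusted p = 0.0323 by edgeR's test). Sympathetic neurons also use *Th*, and some of their markers were near 0. *Dbh*, which makes noradrenaline, had at most 3 counts in any library, and the transcription factors *Phox2a* and *Hand2* had at most 3 and 2. The other genes of catecholamine synthesis and handling were low or did not pass, except for *Gch1*, which makes the cofactor of TH and is also induced in macrophages (log2 fold change 0.66, standard error 0.17). Of the sympathetic list, 4 of 8 genes were tested and 1 rose, where 10.1% of all genes were higher. The gene was *Gata3* (log2 fold change 2.16, standard error 0.38), which is also a factor of T lymphocytes. *Npy*, at 1.70 CPM with *Gfp* and 3.18 CPM with *V1+V2*, did not pass (log2 fold change 0.90, adjusted p = 0.118 by edgeR's test). Of the 4 tested, 2 had a negative log2 fold change, among them *Chrna3* (-0.49), and neither passed. The summed level of that list was 3.22 to 3.61 CPM with *Gfp* and 3.96 to 7.42 CPM with *V1+V2*.

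*Slc17a8* was the lowest marker per length, with 102, 98, and 142 counts in the *Gfp* libraries and 70, 114, and 89 counts in the *V1+V2* libraries. The groups overlapped, and the 95% CI of its log2 fold change ran from -0.95 to 0.21 (estimate -0.37, adjusted p = 0.328 by edgeR's test), which takes in both 0 and the log2 fold change of *Piezo2*. *Slc17a6* (VGLUT2), the main transporter of DRG neurons, had a log2 fold change of -0.40 (adjusted p = 0.0790 by edgeR's test) and *Slc17a7* (VGLUT1), the transporter of proprioceptors and other large neurons, of -0.10 (adjusted p = 0.598).

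The wider lists of markers for the same neurons gave medians close to that of the 10. Of all genes tested, 5.27% were lower and 10.1% were higher, and 50% had a negative log2 fold change, called or not. Of 12 other proprioceptor markers, 10 had a negative log2 fold change, 4 fell, and 1 rose, with a median of -0.36. The 4 were *Kcnc1*, a potassium channel of fast-spiking neurons (log2 fold change -0.76, standard error 0.12), the nuclear receptor *Esrrg* (-0.70, standard error 0.13), *Ntrk3*, the receptor of neurotrophin-3 (-0.61, standard error 0.12), and the semaphorin *Sema5a* (-0.31, standard error 0.08). The gene that rose was *Hpse*, heparanase, an enzyme that leukocytes also make (2.29, standard error 0.39). Among 13 markers of A-fibre low-threshold mechanoreceptors, 10 had a negative log2 fold change, 3 fell, and 1 rose, with a median of -0.32. *Bmpr1b* (-0.44, standard error 0.09), *Cntnap2* (-0.72, standard error 0.17), and *Cadps2* (-0.49, standard error 0.12) fell, and *Colq*, a collagen tail of acetylcholinesterase, rose (0.92, standard error 0.22). Of 7 tested markers of the C-fibre class, 5 had a negative log2 fold change, 3 fell, and 0 rose, with a median of -0.29. Those that fell were *Fam19a4* (-0.68, standard error 0.18), *Cdh9* (-0.64, standard error 0.17), and *Gfra2* (-0.48, standard error 0.13). With any 1 AAV5-*Gfp* library left out, 0 genes of these 3 lists or of the mechanotransduction list passed in either direction. In those fits 59, 0, and 0 of all genes were lower, and 257, 12, and 15 were higher. Without AAV5-*V1+V2* replicate 2, 1 of the other proprioceptor markers and 0 of the A-fibre, C-fibre, and mechanotransduction lists were lower, with 150 of all genes. DESeq2 called 7, 5, 4, and 3 genes of these lists lower, and 1606 of all 18593 genes.

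**Figure D3:**
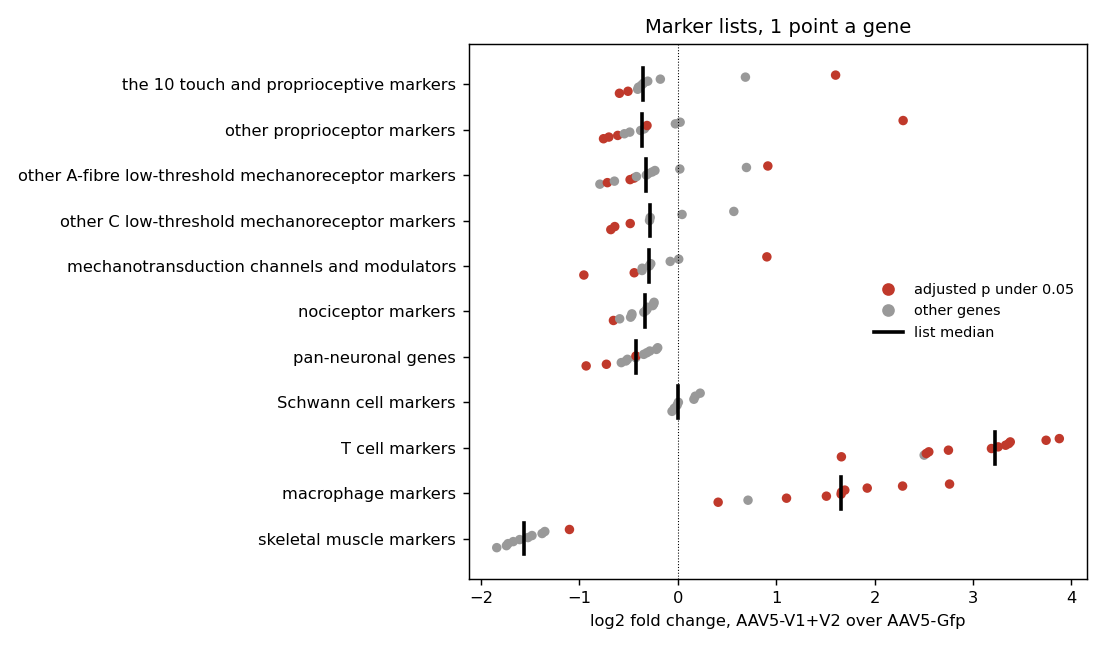
Log2 fold change of AAV5-V1+V2 over AAV5-Gfp for each tested gene of 11 marker lists, 1 point a gene, red where the adjusted p was under 0.05, with a black line at the list median. The 10 markers, the other touch, proprioceptor, and nociceptor lists, and the pan-neuronal genes had medians from -0.43 to -0.29, against 3.22 for T cell markers and 0.01 for Schwann cell markers (all with TMM normalization; scaled to pan-neuronal genes, the median of the 10 was 0.01 and those of the neuronal lists other than the pan-neuronal genes were above 0).

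Pan-neuronal genes moved with the markers. All 12 had a negative log2 fold change with a median of -0.43, and 3 fell, the splicing factor *Rbfox3* (log2 fold change -0.93, standard error 0.19), the synaptic vesicle protein *Syt1* (-0.73, standard error 0.16), and the transcription factor *Pou4f1* (-0.43, standard error 0.10). The count of 3 was 0 without any 1 AAV5-*Gfp* library and 1 without AAV5-*V1+V2* replicate 2. It was 6 without AAV5-*V1+V2* replicate 1 or with DESeq2, and 5 without AAV5-*V1+V2* replicate 3. Of all genes tested with all 6 libraries and TMM, 5.27% were lower. The pan-neuronal genes held 0.922%, 0.894%, and 0.938% of all counts in the *Gfp* libraries and 0.585%, 0.814%, and 0.840% in the *V1+V2* libraries. Relative to the AAV5-*Gfp* mean, their summed CPM was 60.7%, 84.3%, and 89.4% in the *V1+V2* libraries, and the median of the 10 markers was 63.3%, 82.6%, and 87.7%. That median takes in *Runx3* and *Runx1*, which were above their AAV5-*Gfp* means. *Piezo2* was at 53.5%, 70.7%, and 74.5%, and *Pvalb* at 62.5%, 74.0%, and 74.6%. In the sum and in the median AAV5-*V1+V2* replicate 1 was the lowest, and all 12 pan-neuronal genes had their minimum in replicate 1. Of 7 Schwann cell markers 0 passed, and they had a median log2 fold change of 0.01 and summed to 3538 to 4295 CPM with *Gfp* and 3749 to 4149 CPM with *V1+V2*. Satellite glia markers, with 1 of 6 higher and 1 lower, had a median of -0.08. The part of the neuronal share of the RNA in the lower levels of the markers was not tested.

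When the libraries were scaled to the summed pan-neuronal genes in place of TMM, the median log2 fold change of all genes shifted by 0.39. This sum weights the most abundant genes, *Nefm*, *Nefl*, and *Tubb3*, with means of 2249, 2208, and 1464 CPM with *Gfp*. With TMM their log2 fold changes were -0.31, -0.28, and -0.43. In that scaling 0 of the 10 markers were lower, where 0.0807% of all genes were lower, and 1 was higher, *Runx3*, where 6.49% of all genes were higher. *Piezo2* had a log2 fold change of -0.23 (95% CI -0.46 to 0.003, adjusted p = 0.138 by edgeR's test) and *Pvalb* of -0.14 (95% CI -0.52 to 0.25, adjusted p = 0.539). *Th* (0.02), *Necab2* (0.05), and *Whrn* (0.23) changed sign, while *Etv1* (-0.06), *Calb1* (-0.05), and *Slc17a8* (-0.002) were near 0. *Runx3* was 2.09 higher on the log2 scale (standard error 0.44, adjusted p = 0.0308 by edgeR's test) and *Runx1* 1.15 (standard error 0.31, adjusted p = 0.0624). Relative to the median of all genes in this scaling, *Piezo2* was at -0.62, *Pvalb* at -0.53, *Th* at -0.37, *Runx1* at 0.76, and *Runx3* at 1.70. The other neuronal lists also had medians near 0 in this scaling, of 0.01 for other proprioceptor markers, 0.03 for A-fibre markers, 0.08 for C-fibre markers, 0.02 for nociceptor markers, and 0.09 for the mechanotransduction list. In that last list *Asic2* was still lower (log2 fold change -0.59, standard error 0.13, adjusted p = 0.0389 by edgeR's test).

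**Figure D4:**
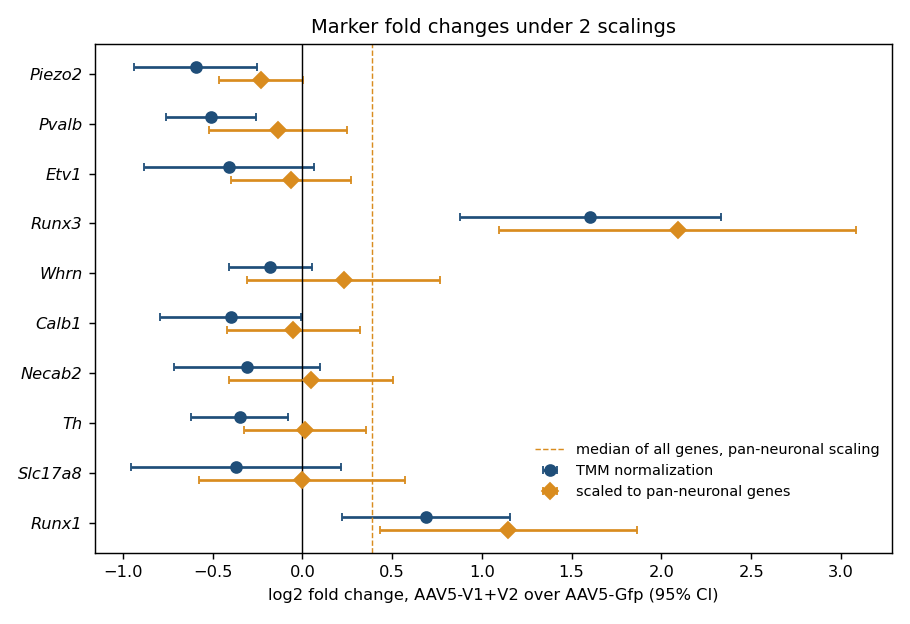
Log2 fold change of AAV5-V1+V2 over AAV5-Gfp with its 95% CI for the 10 markers, from edgeR with TMM normalization (blue circles) and with libraries scaled to 12 pan-neuronal genes (orange diamonds), with a dashed line at the median of all genes in the latter scaling (0.39). Piezo2 moved from -0.59 to -0.23 and Pvalb from -0.51 to -0.14, Th, Necab2, and Whrn changed sign, and Runx3 was above 0 in both.

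Over all 16065 other genes with a mean of at least 1 CPM, the patterns closest to a marker were found by the mean absolute difference of log2 CPM, centred over the 6 libraries. Among the genes close to *Piezo2* was *Ppfia2*, a liprin of the presynaptic active zone (0.0212). The closest to *Runx3* were *C1ra*, a protease of complement (0.0356), and the interferon-induced gene *Trim30a* (0.0492). *Runx1* was closest to *Lbr* (0.0319), the lamin B receptor, and to *Rin3* (0.0403). The distances of the other 7 markers to their closest gene were from 0.0215 for *Th* to 0.0617 for *Slc17a8*. With 6 libraries in 2 groups and so many genes, a small distance is a description of these libraries.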

How the data were processed

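RNA sequencing of microinjected DRGs was analysed in 6 libraries, with total counts from 32025612 to 34764282. The deposited values are the authors' unnormalized counts of reads for each gene symbol, made from stranded total RNA on GRCm38 (mm10). The aligner, the counter, the annotation, and the use of strand are not given in the sources used here. Counts were filtered by filterByExpr, normalized by TMM, and tested in R 4.3.3 with edgeR 4.0.16 (glmQLFit and glmQLFTest, no covariate), with Benjamini-Hochberg adjustment over 18593 genes and a threshold of 0.05. A standard error is the size of the log2 fold change over the root of its F statistic. Alternatives used RLE, total counts, pan-neuronal scaling, no filter, DESeq2 1.42.0, limma-voom 3.58.1, robust empirical Bayes, a replicate block, and leaving out each library. The scripts were tested on simulated data.

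The 10 markers and the other lists were chosen with earlier results of these data known. The rule for named genes took the 10 markers, at most 3 genes of each list with the smallest adjusted p, a few defining markers given for their level, and the 2 closest patterns of each marker; a few genes that it names are not reported here. Names beyond it were chosen after their values were seen: *Ntrk3*, *Sema5a*, and *Colq*, which complete counts, *Necab3*, *Cd8a*, *Stoml3*, *Phox2a*, *Hand2*, *Nefm*, *Nefl*, and *Tubb3*. Exon lengths and coordinates are from GENCODE M21. No pair of libraries of a group differed by as little as sampling noise (chi-square per degree of freedom 8.27 to 48.9). Counting errors cover counting alone.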

Additional observations from a re-analysis of the deposited data

How the results depend on the processing

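All 14 alternatives were run. With all 6 libraries *Runx3* was higher and *Piezo2* and *Pvalb* were lower of the 10 markers, and 1872 of all genes were higher and 980 lower. Total counts, no filter on low counts, and DESeq2 each gave 2 markers higher, by adding *Runx1*. Scaling to pan-neuronal genes gave 0 markers lower, 1206 of all genes higher, and 15 lower, and turned the log2 fold changes of *Th* (0.016), *Necab2* (0.048), and *Whrn* (0.23). DESeq2 gave 1606 of all genes lower. Across the fits that each left out 1 library, the markers higher ran from 0 to 2 and lower from 0 to 4, and all genes from 12 to 2474 higher and from 0 to 1446 lower. All genes numbered 257 and 59 without AAV5-*Gfp* replicate 1, 12 and 0 without replicate 2 (2029 lower at an unadjusted p under 0.05), 15 and 0 without replicate 3 (1815), and 1020 and 150 without AAV5-*V1+V2* replicate 2. The cause was not tested. The share of higher genes among those called was 65.6%, and 98.8% with pan-neuronal scaling.

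The replicate numbers are not stated to pair libraries, and same-numbered libraries deviated together with correlations of 0.04, 0.07, and 0.11. Those of differently numbered libraries ran from -0.10 to 0.04. With the replicate block, 1 marker was higher and 2 were lower, as without it, but 2118 of all genes were higher and 1341 lower. The adjusted p by edgeR's test was then 0.00844 for *Piezo2* and 0.0119 for *Pvalb*. Among the 10 markers, depth limited *Slc17a8* and *Necab2* most, with 70 to 151 counts in a library.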
